A study of Mus musculus with 2 samples.

Results

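Eif4h, a gene of the Williams-Beuren syndrome (WBS) segment, and the genes of the cap-binding complex eIF4F were examined in mouse embryonic stem (ES) cells that carry a deletion of that segment. The members were 10 genes chosen by name: Eif4h, Eif4b, Eif4a1, Eif4a2, Eif4a3, Eif4e, Eif4g1, Eif4g2, Eif4g3 and Eif4ebp1. Each probe set whose only gene symbol was one of these counted as theirs, which gave 30 of 45101 probe sets. These covered 9 of the 10 members, set beside 18194 genes in all. Eif4g1 had no probe set of its own symbol among those analysed here, so the main eIF4G scaffold is treated as not measured. Of the 45101 probe sets, 9211 had no symbol, and whether any of those reads Eif4g1 is not known here.

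The study measured total RNA of 1 ES cell line, with the genotype Del1.3MbWBS, on 2 Affymetrix arrays that the labels call biological replicates. The cells grew on feeder cells, in medium with 20% serum replacement and the cytokine LIF, which keeps mouse ES cells undifferentiated. No line without the deletion was analysed here, so the values show which transcripts were measured and how closely the arrays matched, not what the deletion changed. The labels do not say whether the deletion takes in Eif4h, how many copies were lost or whether the replicates were separate cultures. Their spread may therefore be technical.

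Cap-dependent translation starts when eIF4E binds the cap at the 5′ end of an mRNA. The scaffold eIF4G joins eIF4E to the RNA helicase eIF4A, which unwinds structure ahead of the ribosome, and to the ribosome-bound factor eIF3. The proteins eIF4B and eIF4H stimulate the helicase, and 4E-BP1 competes with eIF4G for eIF4E until the kinase complex mTORC1 phosphorylates it. ES cells translate at a low overall rate that increases as they differentiate.

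Values are RMA values on a log2 scale, given as replicate 1 and replicate 2, or as mean ± SD (n = 2). A probe set was called above background when its mean and its value on both arrays exceeded a threshold, 5.59 for the mean. The threshold was the 95th percentile of the 39 measured olfactory receptor genes, whose transcripts are not expected in ES cells. Transcripts of 8 of the 9 measured members were above background on their brightest probe set, where 68.4% of all genes were. A gene with more probe sets has more chances to pass in this way. The 9 members had 30 probe sets, and the 18194 genes had 34958. Counted by probe set, 24 of 30 were above background, against 61.8% of all probe sets with 1 symbol. Probe sets differ in affinity, so the levels of different probe sets, and hence of different genes, were not ranked.

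The RNA gave signal for markers of both ES cells and fibroblasts. All 8 ES cell markers were above background, with summed log2 values of 96.7 on replicate 1 and 96.8 on replicate 2, and so were all 8 fibroblast markers, with sums of 103.5 and 103.5. Fibroblasts are the usual feeder cell, but which cells gave the fibroblast signal was not tested. Of the 3 measured blood markers, Cd3e was above background, at 6.58 and 6.55, and Ptprc and Itgam were not. Over all genes, 68.4% were above background. Some member probe sets passed with lower means than Cd3e, such as 1442942_at of Eif4h at 5.94 and 1444010_at of Eif4e at 5.84. A call above background does not by itself show that a transcript was present. The share of each member's signal, if any, that came from feeder cells was not tested. Fewer cells of a type and less RNA per cell cannot be told apart.

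Eif4h, listed in the reference gene table under the older name Wbscr1 as well, lies between Lat2 and Limk1 on mouse chromosome 5. Its protein carries an RNA recognition motif and helps eIF4A to unwind RNA. It had 6 probe sets, and 5 of them were above background. They are given below from the brightest to the dimmest.

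The 3 brightest come first. 1438554_x_at was at 12.33 and 12.37, 1416941_s_at at 11.98 and 11.96, and 1451521_x_at at 11.22 and 11.23. All of them lay more than 5 log2 units above the threshold, on both arrays. Each carries a suffix (_x or _s) by which the manufacturer marks probes that can match more than 1 transcript. The annotation names Eif4h alone for all of them. Probe sets with _x, _s or _a, which marks several transcripts of the same gene, are called shared here.

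The other 3 probe sets were unshared and spread widely, with means from 3.35 to 7.86. 1447070_at was at 7.90 and 7.82. 1442942_at, at 5.88 and 5.996, passed the threshold by 0.35 log2 units on average, and did not pass that of the vomeronasal and taste receptor genes (6.08). 1445746_at, at 3.44 and 3.26, was below it, with a mean minus threshold of -2.24. The brightest shared probe set of Eif4h thus stood 4.49 log2 units over its brightest unshared one. A gap of that size or more occurred in 200 of the 4012 genes that have both kinds (4.99%), whose median gap was 0.21. Eif4h remained above background without the shared probe sets, at 7.86 ± 0.059.

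**Figure D1:**
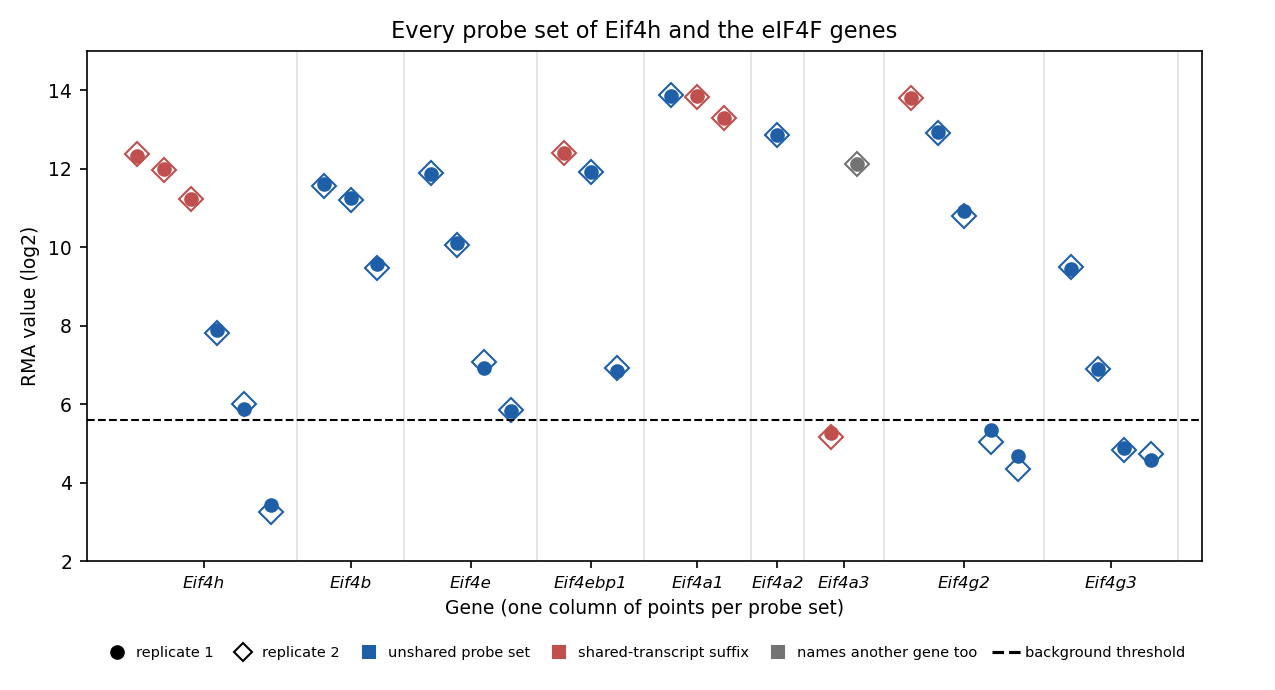
RMA values (log2, y axis) of every probe set of the 9 measured members, with 1 column of points per probe set, filled circles for replicate 1 and open diamonds for replicate 2. The dashed line is the background threshold of 5.59. The 3 brightest probe sets of Eif4h carry a shared-transcript suffix (red), and its unshared probe sets (blue) lie between 3.35 and 7.86, while the grey points of Eif4a3 are a probe set that also names another gene.

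Eif4b encodes the related cofactor of the helicase. Its 3 probe sets were all unshared and all above background. 1426380_at was at 11.61 and 11.56, 1426378_at at 11.26 and 11.20, and 1426379_at at 9.56 and 9.46. All 3 were slightly higher on replicate 1, by 0.053 to 0.10 log2 units, which lay inside the range of probe sets of like level. The probe sets of Eif4b spanned 2.07 log2 units, below the median span of 2.66 over the 2366 genes with 3 probe sets.

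The helicase genes Eif4a1 and Eif4a2 were both above background. Eif4a1 encodes the main helicase of eIF4F, and its 3 probe sets gave nearly the same value. 1427058_at was at 13.85 and 13.87, 1430980_a_at at 13.86 and 13.82, and 1434985_a_at at 13.30 and 13.29. The span of 0.57 log2 units was narrow for a gene with 3 probe sets, of which 94.0% spanned as much or more. Eif4a2, which encodes a close homologue, had the single probe set 1450934_at at 12.86 and 12.85.

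Eif4a3 encodes a helicase of the same family that works in the exon junction complex on spliced mRNA rather than at the cap. It was the 1 measured member not above background. Its only probe set of its own, 1436700_a_at, was at 5.27 and 5.16, with a mean minus threshold of -0.38. Another probe set, 1417242_at, names Eif4a3 together with the pseudogene Gm5576 and was left out by the choice of members. That probe set was at 12.13 and 12.12. Its listed sequence is a RefSeq transcript, and which of these genes gave the signal was not tested. The low call for Eif4a3 therefore rests on 1 probe set, and with 1417242_at counted, an alternative chosen after its value was seen, 9 of 9 members were above background. The reference gene table also lists the Eif4a3-like genes Eif4a3l1 and Eif4a3l2, whose transcripts these probes may not tell apart.

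Eif4e encodes the cap-binding protein itself. All 4 of its probe sets were unshared and above background. 1450908_at was at 11.86 and 11.88, and 1423220_at was at 10.10 and 10.05. The other two were dimmer. 1450909_at was at 6.92 and 7.07, and 1444010_at, at 5.83 and 5.85, passed the threshold by 0.25 log2 units but not that of the vomeronasal and taste receptor genes (6.08). The span within Eif4e was 6.03 log2 units, where 11.2% of the 1093 genes with 4 probe sets spanned as much or more.

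Of the scaffold genes, Eif4g2 and Eif4g3 were measured. Eif4g2 encodes a relative of eIF4G that lacks the eIF4E-binding region and supports translation without it; in the mouse it is needed for ES cells to differentiate. Its probe set 1452758_s_at was at 13.797 and 13.796, 1415863_at was at 12.92 and 12.90, and 1428362_at was at 10.92 and 10.79. The remaining ones were not above background on either array. 1458431_at was at 5.35 and 5.03, and 1428363_at at 4.68 and 4.36. The span of 9.28 log2 units was matched or exceeded by 5 of the 465 genes with 5 probe sets, Eif4g2 included.

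Eif4g3 encodes the full-length homologue eIF4GII, which binds eIF4E. 1426833_at was at 9.45 and 9.50 and 1446145_at at 6.89 and 6.89, both above background. 1430578_at, at 4.88 and 4.83, and 1440571_at, at 4.59 and 4.74, were not. The Eif4g3 level thus depended on the probe set, and the median of its 4 probe sets was 5.87.

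Eif4ebp1 encodes 4E-BP1, the inhibitor that sequesters eIF4E. All 3 of its probe sets were above background. 1434976_x_at was at 12.40 and 12.41, and the unshared 1417562_at was at 11.91 and 11.91. 1417563_at was at 6.84 and 6.92. Transcripts of the cap-binding protein and of its inhibitor were thus both above background in this culture. Phosphorylation of 4E-BP1, which sets its activity, is not measured by these arrays.

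Disagreement among probe sets of 1 gene was common in the series. Of the 7 members with several probe sets, Eif4h, Eif4g2 and Eif4g3 had some above background and some not, and 43.5% of all genes with several did. Of the 4 members with shared and unshared probe sets, 3 (Eif4h, Eif4g2 and Eif4ebp1) had a shared one as the brightest, as did 55% of the 4012 such genes. In Eif4g2 that probe set stood 0.89 log2 units over the best unshared one, and in Eif4ebp1 0.49. Eif4a1 was the exception, at -0.020.

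The 6 member probe sets not above background were looked at by the kind of sequence listed for them, sorted by its identifier. An expressed sequence tag (EST), a single-pass read of a cDNA, was the listed sequence of 5 of them. An EST was also listed for 16 of the 24 above background. The 4 member probe sets listed with RefSeq transcripts and the 2 listed with cDNA clones were all above background. In Eif4h, the shared 1416941_s_at was listed with a RefSeq transcript and the shared 1451521_x_at with a cDNA clone. Its other shared probe set and all its unshared ones were listed with ESTs. Over all probe sets with 1 symbol, 60.1% of those with ESTs, 65.6% of those with RefSeq transcripts and 62.6% of those with cDNA clones were above background.

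The replicates differed little in the member probe sets above background. Of the 24 probe sets above background, 11 were higher on replicate 2 and 13 on replicate 1. The median size of their difference was 0.030 log2 units, beside 0.067 for all 25987 probe sets above background on at least 1 array. No member probe set differed 1.5-fold or more, as 0.123% of those 25987 did. Among the 24, the largest difference was 0.14 log2 units, in the Eif4e probe set 1450909_at, against an SD of the difference of 0.128 over the 25987. The 6 member probe sets not above background differed by a median of 0.16 log2 units, more than the 0.11 of all probe sets above on neither array. Their largest difference was 0.32 log2 units, in 1458431_at of Eif4g2.

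Because the spread varied with level and was narrowest among bright probe sets, each difference was also set beside the 500 probe sets nearest in mean. Only 1428362_at of Eif4g2, at -0.13 log2 units, lay outside their central 95%, which ran from -0.11 to 0.13. That was 1 of 30 member probe sets, and 5.19% of all probe sets lay outside in this way. All 5 probe sets of Eif4g2 were higher on replicate 1, but the brightest differed by only 0.0014. Eif4ebp1 was higher on replicate 2 in all 3.

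**Figure D2:**
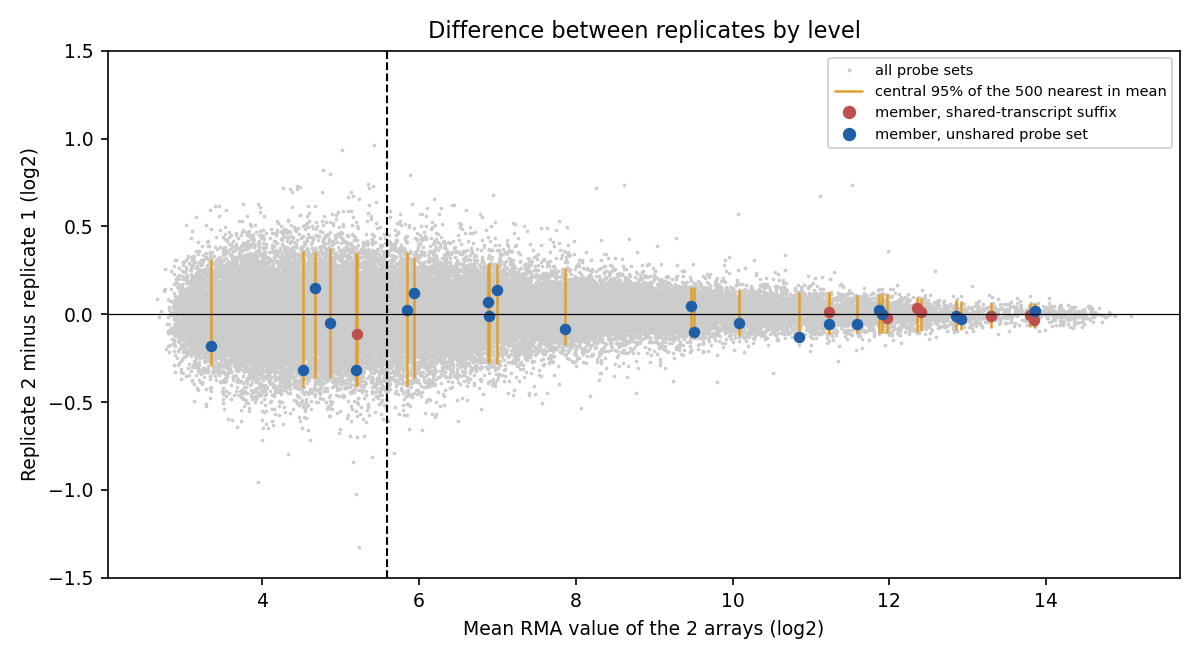
Replicate 2 minus replicate 1 (log2, y axis) against the mean of the arrays (log2, x axis) for all 45101 probe sets (grey) and the 30 member probe sets (red with a shared-transcript suffix, blue without). Orange bars span the central 95% of the 500 probe sets nearest in mean, and the dashed line is the background threshold of 5.59. All but 1 of the member points lie within their bar.

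The genes that work with eIF4F were described from 9 lists of 63 genes, of which 54 were measured. All 54 were above background on their brightest probe set, by 1.34 log2 units or more, and none differed by more than 0.23 between the replicates. As above, 68.4% of all genes were above background. The lists were chosen with earlier results of these data known. Neither this total nor the count of any list below is therefore a test against that share. With the median of each gene's probe sets, and a threshold of 5.28 made the same way from the reference genes, Rptor, Eif3h and Eif2ak3 were not above background. With unshared probe sets, and again a threshold of 5.28, Eif3e and Eif2ak4 were not. Without a probe set of that sole symbol here were Eif4ebp3, Rps6kb1, Eif3g, Eif3j1, Eif2s1, Eif1, Magoh, Magohb and Upf3b.

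Among the homologues of eIF4E and the proteins that bind it, 4 of 4 were above background. Eif4e2, which encodes a cap-binding protein that represses translation, was at 11.24 ± 0.024. Eif4e3 was at 7.76 ± 0.011, and Eif4ebp2, which encodes a second 4E-BP, at 10.46 ± 0.051. All 4 regulators of eIF4E and eIF4A were above background as well. The kinase genes Mknk1 and Mknk2, whose products phosphorylate eIF4E, were at 7.50 ± 0.053 and 9.72 ± 0.014. Pdcd4, which encodes an inhibitor of eIF4A, was at 9.64 ± 0.051.

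All 5 genes of poly(A)-binding proteins and their partners were above background. The poly(A)-binding proteins, which bind eIF4G and so link the tail of an mRNA to its cap, were at 14.37 ± 0.0063 for Pabpc1 and 11.34 ± 0.00090 for Pabpc4. Paip1, which encodes a stimulatory partner, was at 9.56 ± 0.0096. All 8 measured genes of mTORC1 and S6 kinase signalling were above background, with the kinase gene Mtor at 9.16 ± 0.026 and the genes of its partners Rptor and Mlst8 at 8.83 ± 0.0028 and 6.93 ± 0.12.

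The genes of eIF3, which ties eIF4G to the small ribosomal subunit, were above background in 11 of 11. Eif3a was at 13.02 ± 0.0056, Eif3b at 11.26 ± 0.036 and Eif3c at 12.51 ± 0.0041. Of eIF2, which brings the initiator tRNA, and its exchange factor eIF2B, 7 of 7 were. Eif2s2 was at 13.61 ± 0.0056, Eif2s3x at 11.83 ± 0.0065 and Eif2b1 at 10.11 ± 0.077. So were all 4 eIF2 kinases, which slow initiation under stress. Eif2ak1, the kinase gene for haem shortage, was at 7.24 ± 0.069, Eif2ak2, for double-stranded RNA, at 10.30 ± 0.16, and Eif2ak3, for stress of the endoplasmic reticulum, at 9.08 ± 0.035.

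The list of eIF1, eIF5 and eIF6 genes had 7 of 7 above background. Eif1a was at 11.73 ± 0.0092, Eif1b at 10.85 ± 0.075 and Eif1ax at 11.81 ± 0.017. In the exon junction complex and the decay factors it recruits, with which the product of Eif4a3 works, 4 of 4 measured were. Rbm8a, a core subunit gene, was at 12.08 ± 0.029, Casc3 at 8.52 ± 0.012 and the decay helicase gene Upf1 at 7.38 ± 0.054.

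**Figure D3:**
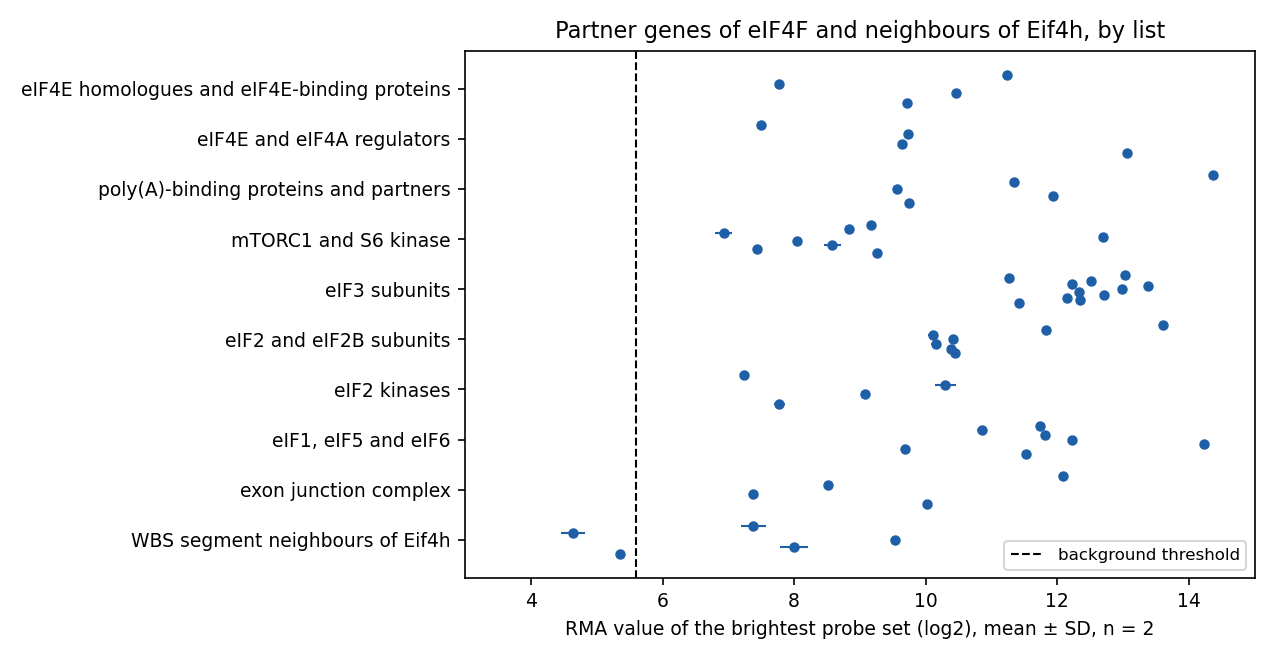
RMA value of the brightest probe set (log2, x axis; points are means and bars the SD, n = 2) of each measured gene in the 9 lists of partner genes and in the list of WBS segment neighbours of Eif4h. All 54 partner genes and 3 of the 5 segment neighbours lie right of the dashed background threshold of 5.59, as do 68.4% of all genes. The lists were chosen with earlier results of these data known.

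On the WBS segment, 3 of 5 listed neighbours of Eif4h were above background, where 68.4% of all genes were. Of the genes next to it, Limk1, which encodes a kinase of the actin cytoskeleton, was above background at 7.24 and 7.51, and Lat2, which encodes an adaptor of blood cells, was not, at 4.76 and 4.51. Rfc2 and Eln were also above, and Clip2, at 5.36 ± 0.021, was not.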

How the data were processed

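The authors deposited 1 log2 value for each probe set on each of 2 arrays, made with RMA per the submitters' processing notes. RMA corrects background, quantile-normalizes the arrays and summarises probes, which hides any shift common to most genes. The RMA version is not given in the sources used here. Precision is limited by the number of arrays. Unused columns numbered 0.

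Of 45101 probe sets, 34958 had 1 symbol in the platform annotation table, 932 several and 9211 none. The brightest probe set by mean stood for a gene in gene counts. With 1 group no test between groups was possible, and no p-value is given. A pair of arrays gives no expression pattern, so genes of similar pattern were not named. The text names every member, and of each partner list the first 3 above background in list order and every one not above. The members and lists were chosen with earlier results of these data known. Alternatives were other thresholds and reference genes (vomeronasal and taste receptors), the median of probe sets, unshared probe sets, each array alone, centring, loess (fraction 0.3, statsmodels 0.14.6) and no filter on dim probe sets. Calculations used Python 3.11.15 with pandas 2.3.3, and were tested on simulated data.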

Additional observations from a re-analysis of the deposited data

How the results depend on the processing

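The count of 8 of 9 members above background was also 8 of 9 with the 99th percentile, every olfactory receptor probe set, vomeronasal and taste receptors, and the median over a gene's probe sets. It was 8 to 8 with each array alone, 8 of 8 with unshared probe sets, which leave Eif4a3 out, and 9 of 9 with the probe set that also names Gm5576. The count of 24 of 30 probe sets became 22 with vomeronasal and taste receptors, whose threshold was 6.08, without 1442942_at of Eif4h and 1444010_at of Eif4e, and was 24 to 24 with each array alone. All 54 partner genes passed each other threshold and each array alone. With that median, and a threshold made the same way (5.28), 51 did, without Rptor, Eif3h and Eif2ak3, and with unshared probe sets, again at 5.28, 41 of 43, without Eif3e and Eif2ak4. The median of the levels of 9 members, 12.35, became 10.85 when each gene took its median probe set value. With unshared probe sets it was 11.89, over 8 members, without Eif4a3, so that value is of another set. With each array alone it was 12.33 to 12.37. Eif4h itself moved to 9.54 with the median and 7.86 with unshared probe sets, and Eif4g3 to 5.87 with the median. The choice of probe set moved 10 of 17 member levels by more than the SD between replicates, 7 of 9 with the median and 3 of 8 with unshared probe sets. With the median, the levels that stayed were of genes with a single probe set. With unshared probe sets, they were of genes whose brightest probe set was already unshared. Such levels could not move, so they do not show robustness. A single array, or centring, cannot move a mean of 2 arrays by more than that SD. The largest member difference, 0.14, was 0.32 without the filter on dim probe sets, which adds dimmer ones, and 0.14 after centring or loess. After loess it was that of 1428362_at of Eif4g2, no longer that of 1450909_at of Eif4e. No paired analysis was possible because there is a single group. Near the threshold, signal over background limits the call.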
